A study of Hydra vulgaris with 5 samples.

Results

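Tissue of the freshwater polyp Hydra vulgaris that was regenerating its hypostome, the mouth-bearing cone at the tip of the head, was compared between 4 h and 0 h after cutting, with 1 single-cell library at each time. The members are the 118 genes whose level differed at least 3-fold between the libraries, out of 5569 genes with at least 50 counts over both and of 46156 entries in the tables. All groups are polyps of strain 105, and no transgene or drug is named for any of them. Every library was made from tissue dissociated with the protease Pronase E, by droplet capture of transcript 3′ ends. The 0 h and 4 h libraries are tissue labelled as regenerating hypostome. A pair of libraries labelled as hypostome, without regeneration, and 1 library of tissue regenerating for 12 h serve only for levels beside the comparison. How many polyps were pooled in a library is not given in the labels.

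A Hydra cut across its body closes the wound within the epithelia and then rebuilds a head organizer, the tissue at the tip whose Wnt signals set up the new mouth and tentacles. The polyp has an outer ectodermal and an inner endodermal epithelium, with stinging cells, nerve cells and gland cells derived from interstitial stem cells. Gland cells secrete the digestive proteases, and the cells of the basal disc, the foot, secrete an adhesive mucus.

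Each level is a count summed over the barcodes with at least 200 detected genes and scaled to the same total in every library (CPM), after 1 dominant entry without a description, MSTRG.22171, had been removed. This left 1209613 counts in 2332 barcodes at 0 h and 1605812 counts in 2782 barcodes at 4 h. MSTRG.22171 itself held 13.1% of the counts at 0 h and 35.6% at 4 h. The hypostome libraries held 129433 and 213647 counts, and the 12 h library 52713. A count of 3, the floor used for limits, is 2.48 CPM at 0 h, 1.87 at 4 h, 23.2 and 14.0 in the hypostome libraries and 56.9 at 12 h. Summed levels of the marker lists were similar at both times for nematocytes, 4499 CPM at 0 h and 4926 at 4 h, and for neurons, 556 and 572. So were those for endodermal epithelium, 18513 and 16801, and for ectodermal epithelium, 4530 and 5118. With MSTRG.22171 kept in the totals all 6 lists are lower at 4 h. Of the 83 neuron entries 7 were tested, and the separate family of neuropeptide precursors summed to 628 CPM at 0 h and 953 at 4 h. Gland markers summed to 7633 CPM at 0 h and 5123 at 4 h, with 16 of 27 tested entries below a ratio of 1 and 50 and 47 of all 144 entries at 0 counts, and stem cell markers summed to 255 and 166. The 10 entries described as KS1 or KS1-like, head-specific genes of Hydra, summed to 629 CPM at 0 h and 390.5 at 4 h, against 3662 and 3829 in the hypostome libraries, so the regenerating tissue carried this head marker at a low level.

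Of the entries other than MSTRG.22171, 40586 had fewer than 50 counts over both times and were not compared. With 1 library at each time there is no test between them. Each ratio carries an exact conditional binomial interval at the 95% level, which accounts for counting error alone, and for too little of it should the deposited counts be reads instead of molecules. In summed counts, fewer cells of a type and less RNA per cell cannot be told apart.

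Among the 5569 genes, 92 were at least 3-fold higher at 4 h (1.65%) and 26 at least 3-fold lower (0.467%), together 2.12%. Of the 92 higher genes 30 had no name or an uncharacterized description, 8 were matrix and adhesion genes, 7 protease inhibitors, 6 lectins and mucins, and 6 redox genes. The lower genes were led by zinc metalloproteases of the astacin family, with glycosidases, protease inhibitors and a caspase beside them. The median fold was 5.47 among the higher and 3.98 among the lower genes, and 32 higher genes but 1 lower gene differed at least 10-fold. Over the 5569 genes the median log2 ratio was -0.20, and 33.96% of them had a ratio above 1.

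**Figure D1:**
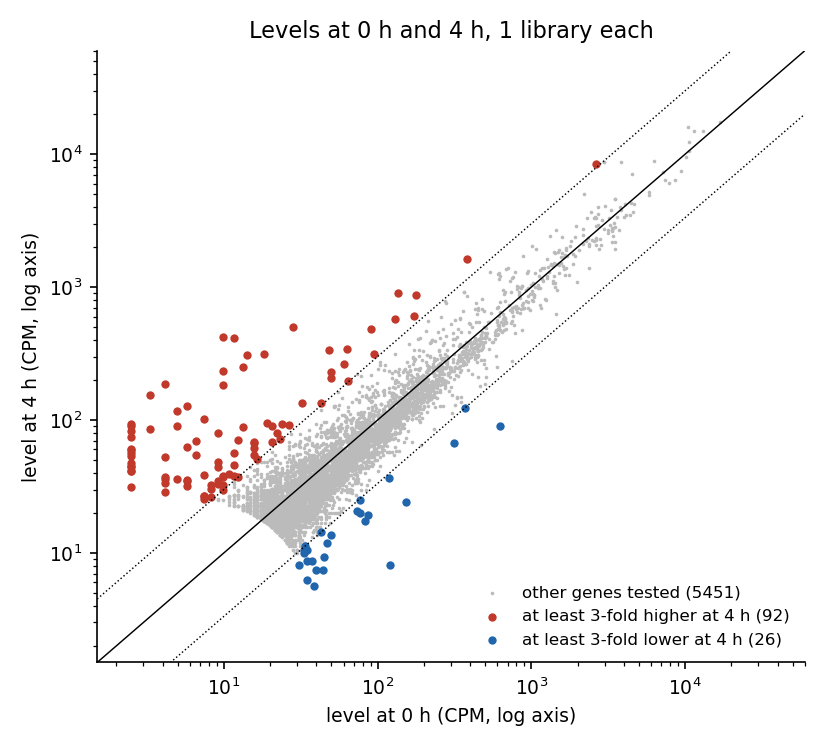
Level of every tested gene at 0 h (x axis, CPM, log scale) and at 4 h (y axis, CPM, log scale), 1 point per gene, counts below 3 drawn at 3. The solid line is equality and the dotted lines are 3-fold differences; the 92 red genes lie above the upper dotted line, most of them from low levels at 0 h, and the 26 blue genes below the lower one.

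**Figure D2:**
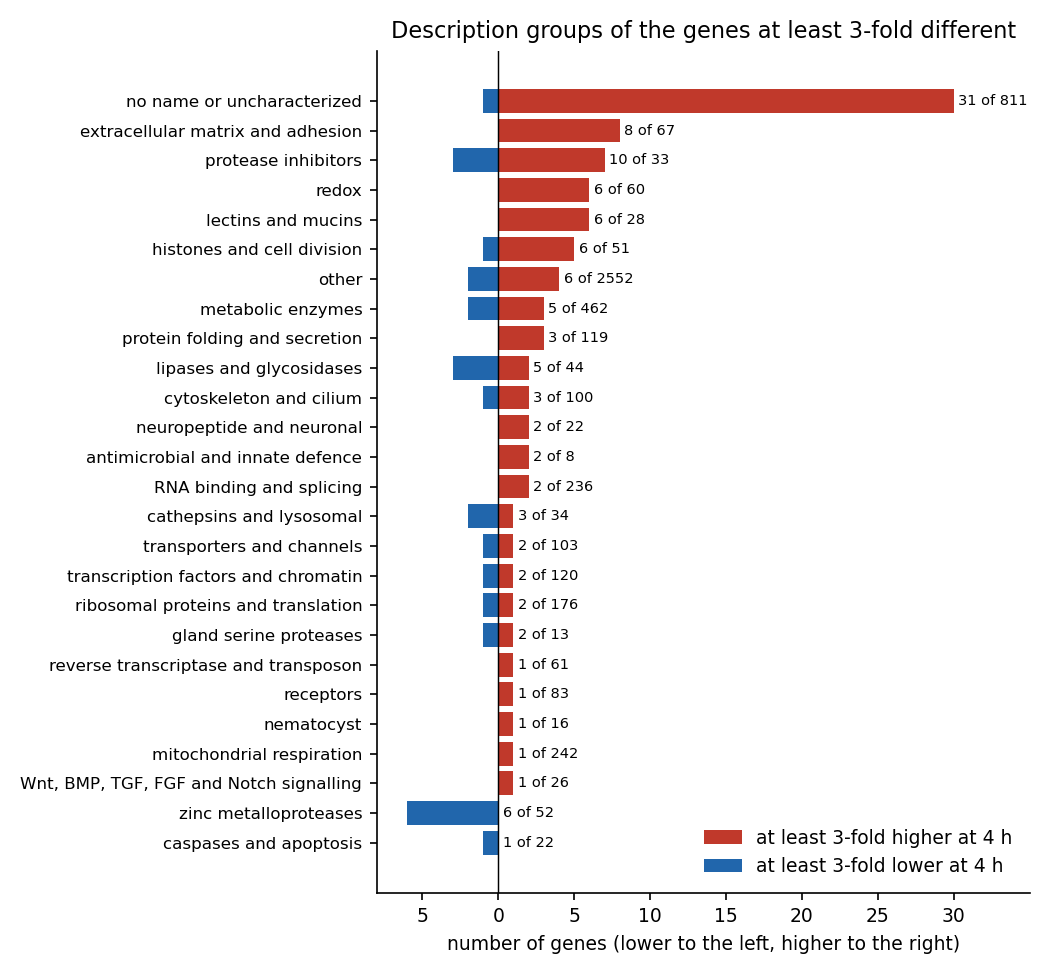
Number of genes at least 3-fold higher (red, right) or lower (blue, left) at 4 h in each description group that held any, with the number past the threshold of the number tested beside each bar. The 6 zinc metalloproteases all lie to the left, while the 8 matrix and adhesion genes, the 6 redox genes and the 6 lectins and mucins all lie to the right.

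The lectins and mucins held 6 higher genes of 28 tested, and 5 of these were rhamnose-binding lectins, secreted sugar-binding proteins known from fish eggs and invertebrate body fluids. The family had 11 tested members, all with a ratio above 1 (7 of 11 with MSTRG.22171 kept in the totals), and summed over its 27 entries it stood at 870 CPM at 0 h and 2850 CPM at 4 h. The most abundant of the 5, Sc4wPfr_1300.g9819, had 165 counts at 0 h and 1440 at 4 h, or 136 and 897 CPM. That was 6.57-fold higher (interval 5.59 to 7.77). MSTRG.3173 had 129 CPM at 0 h and 574 at 4 h, 4.45-fold higher (3.75 to 5.31), and Sc4wPfr_1300.g9821 had 18.2 and 316 CPM, 17.4-fold higher (11.4 to 28.0). The remaining pair were nearly silent at 0 h. Sc4wPfr_270.1.g19689 had 5 counts at 0 h and 302 at 4 h, 45.5-fold higher (19.3 to 141). Sc4wPfr_270.g6407 had 0 counts at 0 h and 120 at 4 h, which is 30.1-fold higher against a floor of 3 counts, with a lower interval bound of 24.1. The other 6 tested lectins of this family differed less, with ratios between 1.01 and 1.78. The sixth gene of the group, MSTRG.17904, carries the name of the yeast flocculation adhesin FLO11 and had 16 counts at 0 h and 403 at 4 h, 19.0-fold higher (11.5 to 33.5).

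Protease inhibitors went both ways, with 7 of 33 tested genes higher and 3 lower. The higher ones were 5 of the 7 tested Kunitz domain-containing 4-like genes, relatives of bovine pancreatic trypsin inhibitor, and a pair of cystatins, inhibitors of cysteine proteases. All 7 Kunitz genes of this kind had a ratio above 1 (5 of 7 with MSTRG.22171 kept), and the family summed to 298 CPM at 0 h and 1311 at 4 h. MSTRG.23156 had 109 counts at 0 h and 772 at 4 h, or 90.1 and 481 CPM, 5.34-fold higher (4.36 to 6.58). MSTRG.23157 had 76 and 551 counts, 5.46-fold higher (4.29 to 7.04), Sc4wPfr_758.g3710 had 60 and 372, 4.67-fold (3.55 to 6.24), and Sc4wPfr_20.g15630 had 19 and 99, 3.92-fold (2.39 to 6.79). Sc4wPfr_178.g10682 stood out because it had 0 counts at 0 h and 150 at 4 h, which is 37.7-fold higher against the floor, with a lower interval bound of 30.3. Its neighbour in the numbering with the same description, Sc4wPfr_178.g10680, had 30 and 48 counts, a ratio of 1.21 (0.748 to 1.97). The cystatin Sc4wPfr_227.g25772 had 1 count at 0 h and 133 at 4 h, which is a raw ratio of 100.2 with a lower bound of 17.7. The cystatin-like MSTRG.8431 had 7 and 56 counts, 6.03-fold higher (2.74 to 15.7).

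The lower inhibitors carried other descriptions, though MSTRG.308 is of the Kunitz type as well, so this type went both ways. MSTRG.308, a Kunitz-type serine protease inhibitor IX, had 143 counts at 0 h and 59 at 4 h, 3.22-fold lower (2.36 to 4.43), though its log2 ratio was -0.42 with every barcode weighing the same. Sc4wPfr_1036.g360, of the Kazal type that inhibits trypsin-like proteases, had 45 and 14 counts, 4.27-fold lower (2.30 to 8.42). MSTRG.15483, a 4-domain protease inhibitor, had 60 and 22, 3.62-fold lower (2.19 to 6.20). The Kazal family was split, with 3 of its 6 tested genes above a ratio of 1 and 3 below (2 and 4 with MSTRG.22171 kept).

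Of 67 extracellular matrix and adhesion genes, 8 were higher at 4 h and 0 lower. The largest fold was that of Sc4wPfr_14.g1771, described as a multiple EGF-like domains protein, a scavenger-receptor type of surface protein in vertebrates. It had 12 counts at 0 h and 672 at 4 h, or 9.92 and 418 CPM, 42.2-fold higher (24.0 to 82.0). The most abundant was MSTRG.6013, named for SCO-spondin, a large secreted glycoprotein, with 172 CPM at 0 h and 611 at 4 h, 3.55-fold higher (3.06 to 4.15). MSTRG.20236, a protocadherin, a cell adhesion receptor, had 9 and 164 counts, 13.7-fold higher (7.06 to 30.6). Fibropellin, a matrix protein named in sea urchins, had 11 and 71 counts (Sc4wPfr_548.g4917), 4.86-fold higher (2.56 to 10.2). A pair of brain-specific angiogenesis inhibitor 1-like genes, adhesion receptors with thrombospondin repeats in vertebrates, had 15 and 60 counts (Sc4wPfr_1747.g1276) and 12 and 60 (Sc4wPfr_221.g17479).

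Talin, which links integrins to actin, had 4 tested entries, and the 2 with few counts were the higher ones. Sc4wPfr_635.g14748 had 6 counts at 0 h and 58 at 4 h, 7.28-fold higher (3.15 to 20.7). MSTRG.20919 had 1 and 71 counts, a raw ratio of 53.5 with a lower bound of 9.29, but 65 of the 71 counts lay in 1 barcode, and without it the fold was 1.51. The abundant talin entries differed little: MSTRG.15745 had 149 and 197 counts, a ratio of 0.996 (0.801 to 1.24), and Sc4wPfr_423.g13423 had 128 and 144, a ratio of 0.847 (0.663 to 1.08). Summed over all 4, talin stood at 235 CPM at 0 h and 293 at 4 h.

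Redox genes held 6 higher and 0 lower of 60 tested. Ascorbate peroxidases, heme enzymes that remove hydrogen peroxide, gave a pair of them. Sc4wPfr_950.g24045 had 12 counts at 0 h and 376 at 4 h, 23.6-fold higher (13.4 to 46.1), and Sc4wPfr_14.g1751 had 4 and 138, 26.0-fold higher (9.92 to 96.7), while the other 3 tested entries of this name had ratios between 0.779 and 1.37. MSTRG.19271, a ferric-chelate reductase, an enzyme of iron uptake, had 1 and 90 counts, a raw ratio of 67.8 with a lower bound of 11.9. The PPOD1 peroxidase entry Sc4wPfr_240.g3662, of a family that marks the basal disc of Hydra, had 23 and 152 counts, 4.98-fold higher (3.20 to 8.09). The more abundant PPOD entries did not differ in the same way. MSTRG.8978 had 613 CPM at 0 h and 1283 at 4 h, which is a ratio of 2.09 (1.92 to 2.28), whereas Sc4wPfr_884.g31958 had 985 and 674 CPM, a ratio of 0.684 (0.630 to 0.744). All PPOD entries together stood at 3221 CPM at 0 h and 3593 at 4 h, an order that turns around with MSTRG.22171 kept. The last redox members were the laccase-like MSTRG.19631, with 25 and 110 counts, and Sc4wPfr_1626.g30674, a glutathione-specific gamma-glutamylcyclotransferase, with 20 and 82.

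Enzymes that act on sugar polymers were found on both sides, with 2 higher and 3 lower of 44 lipases and glycosidases. Sc4wPfr_388.1.g10257, an alpha-L-arabinofuranosidase B-like enzyme, had 34 counts at 0 h and 804 at 4 h, or 28.1 and 501 CPM, 17.8-fold higher (12.6 to 25.9). Sc4wPfr_788.g26562, a chitinase, had 2 and 144 counts, a raw ratio of 54.2 (14.7 to 452). Each had a relative that differed less or the other way: the chitinase Sc4wPfr_200.g3486 had 133 and 165 counts, a ratio of 0.935 (0.739 to 1.18), and the arabinofuranosidase MSTRG.8553 had 102 and 48, a ratio of 0.354 (0.246 to 0.504). The lowest ratio of all 5569 genes was that of Sc4wPfr_177.1.g6182, a glucan 1,3-beta-glucosidase A, an enzyme that trims beta-glucans. It had 145 counts at 0 h and 13 at 4 h, or 120 and 8.10 CPM, 14.8-fold lower (8.39 to 28.5). Both tested polysaccharide deacetylases were lower, MSTRG.2002 with 54 and 15 counts, 4.78-fold (2.66 to 9.12), and Sc4wPfr_1152.g30307 with 37 and 13, 3.78-fold (1.96 to 7.75).

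**Figure D3:**
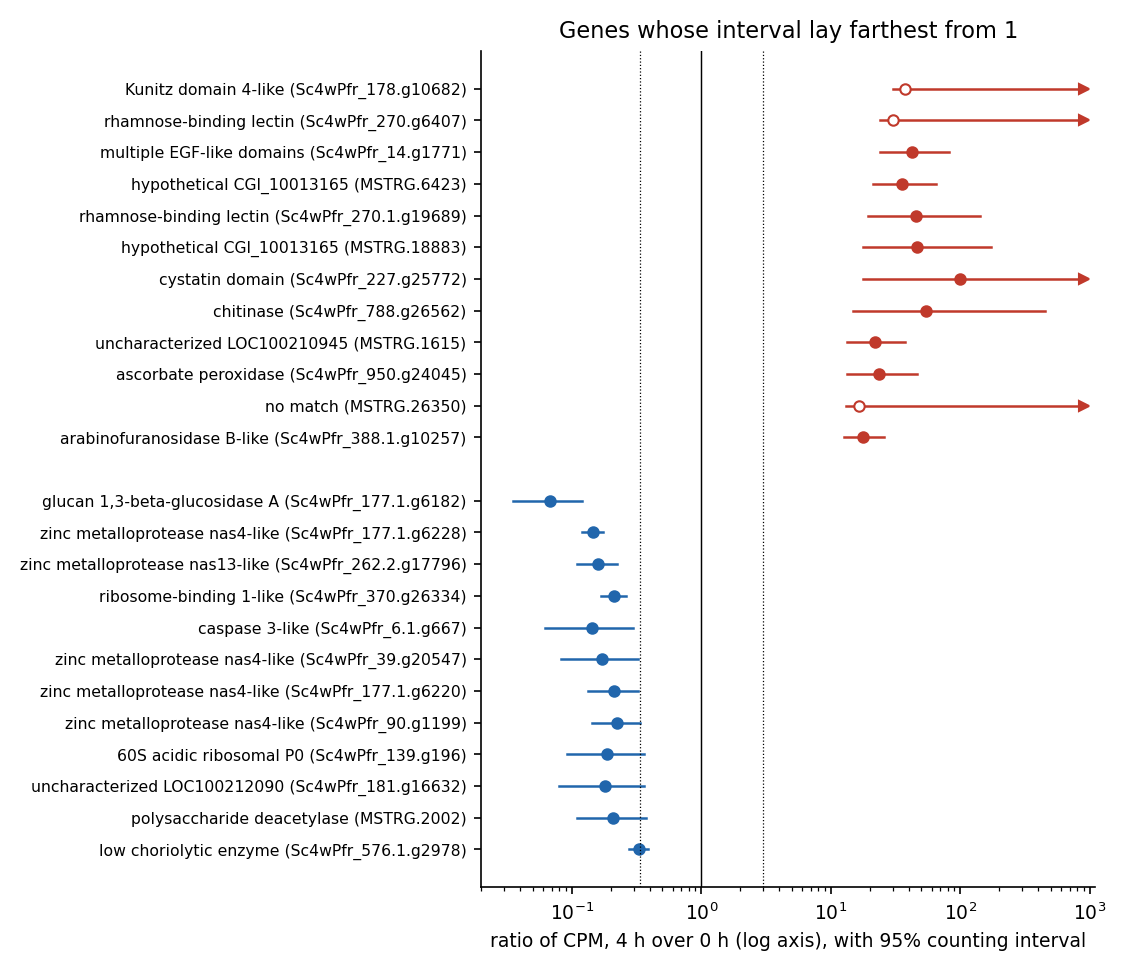
Ratio of CPM at 4 h over 0 h (x axis, log scale) with its 95% counting interval for the 12 genes each way whose interval lay farthest from 1. Filled points are raw ratios, open points are ratios against the floor of 3 counts for genes with 0 counts at 0 h, with the interval's lower bound to their left, arrows mark intervals that run past the axis, and dotted lines mark 3-fold; the lower bounds of the red genes all exceed 10, while the blue intervals lie nearer to 1.

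The zinc metalloproteases were the one group with several members lower and 0 higher, 6 of 52 tested, and 39 of the 52 had a ratio below 1 (34 with TMM factors and 45 with MSTRG.22171 kept), with a median log2 ratio of -0.50. Over all 5569 genes 66.0% had a ratio below 1, and the median was -0.20. All 6 are astacins, secreted proteases with a zinc ion in the active site that in Hydra include enzymes of the mesoglea and of digestion. The most abundant, Sc4wPfr_177.1.g6228, a nas4-like gene (named after nematode astacins), had 751 counts at 0 h and 145 at 4 h, or 621 and 90.3 CPM, 6.88-fold lower (5.75 to 8.27). The nas13-like Sc4wPfr_262.2.g17796 had 185 and 39 counts, 6.30-fold lower (4.44 to 9.14). Sc4wPfr_39.g20547 had 53 and 12, 5.86-fold (3.09 to 12.1), Sc4wPfr_177.1.g6220 had 100 and 28, 4.74-fold (3.09 to 7.49), and Sc4wPfr_90.g1199 had 105 and 31, 4.50-fold (2.99 to 6.95). The last, Sc4wPfr_576.1.g2978, is named for a fish hatching enzyme, low choriolytic enzyme, and had 372 CPM at 0 h and 123 at 4 h, 3.03-fold lower (2.56 to 3.60).

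These 6 stood at one end of a graded family. Of 15 tested nas4-like genes 13 had a ratio below 1 (13 with TMM factors and 14 with MSTRG.22171 kept), and summed over all entries nas4-like genes stood at 4383 CPM at 0 h and 2277 at 4 h. The most abundant nas4-like gene, Sc4wPfr_1514.2.g69, had 1161 and 696 CPM, a ratio of 0.599 (0.553 to 0.649). Of 9 choriolytic or hatching enzymes 8 had a ratio below 1 (7 with TMM factors and 9 with MSTRG.22171 kept), and 66.0% of all genes did. The nas13-like genes were mixed: Sc4wPfr_87.g16528 had 94 counts at 0 h and 346 at 4 h, which is a ratio of 2.77 (2.20 to 3.52), and 3 of 8 had a ratio above 1 (4 with TMM factors and 2 with MSTRG.22171 kept). Chymotrypsin and elastase entries, products of gland cells, summed to 6329 CPM at 0 h and 3990 at 4 h. The summed level of the gland marker list was lower at 4 h as well, while 11 of its 27 tested entries had a ratio above 1, and the list's median log2 ratio was -0.09, against -0.20 over all genes. Their part in the astacin values was not tested.

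Among 13 tested gland serine proteases, 1 was higher and 1 lower. The elastase-like Sc4wPfr_391.g24627 had 15 counts at 0 h and 114 at 4 h, 5.72-fold higher (3.33 to 10.6). The serine protease 27-like MSTRG.3315 had 89 and 33 counts, 3.58-fold lower (2.38 to 5.51). The abundant chymotrypsin-type gene Sc4wPfr_41.g30759 had 3490.4 CPM at 0 h and 1945 at 4 h, which is a ratio of 0.557 (0.532 to 0.584). Of 12 tested chymotrypsin and elastase entries 9 had a ratio below 1 and 3 above (7 and 5 with TMM factors), where 66.0% of all genes lay below. The 3 were the elastase-like gene, MSTRG.14945 with a ratio of 2.996 (2.37 to 3.82) and MSTRG.23660 with 1.65 (1.42 to 1.93).

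Genes of the lysosome gave 1 higher and 2 lower of 34 tested. NPC2 and its mammalian form, epididymal secretory protein E1, carry cholesterol out of lysosomes. Of 4 tested entries under these names 1 was higher and 1 lower. Sc4wPfr_1152.g30297, described as epididymal secretory protein E1, had 60.4 CPM at 0 h and 262 at 4 h, 4.34-fold higher (3.38 to 5.65). Sc4wPfr_1152.g30305, described as an NPC2 homolog, had 76.9 and 24.9 CPM, 3.09-fold lower (2.11 to 4.59). The other tested entries of this family lay between them. Sc4wPfr_1152.g30308 had a ratio of 1.29 (0.888 to 1.90) and Sc4wPfr_1152.g30309 one of 0.562 (0.377 to 0.833). MSTRG.9091, an acid ceramidase, which splits ceramide, had 57 and 19 counts, 3.98-fold lower (2.33 to 7.09).

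Caspases are the proteases that carry out apoptosis, and 1 of the 22 genes tested in the group of caspases and apoptosis was lower, with 0 higher. Sc4wPfr_6.1.g667, a caspase 3-like gene, had 47 counts at 0 h and 9 at 4 h, or 38.9 and 5.60 CPM, 6.93-fold lower (3.36 to 16.1). Of the 7 tested caspases 6 had a ratio below 1 (5 with TMM factors), where 66.0% of all genes did. The most abundant, MSTRG.2379, had 507 and 245 CPM, a ratio of 0.483 (0.424 to 0.549), and Sc4wPfr_119.3.g4263 had 446 and 211 CPM, a ratio of 0.473 (0.412 to 0.543).

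Genes of defence, signalling and nerve cells gave few members. Of 8 antimicrobial and innate defence genes, 2 were higher, both temperature-induced lipocalin-like genes, named after plant proteins of stress tolerance. Sc4wPfr_624.g29807 had 16 counts at 0 h and 143 at 4 h, 6.73-fold higher (4.01 to 12.1), and MSTRG.20632 had 19 and 108, 4.28-fold higher (2.61 to 7.39). Of 26 genes of growth factor and Wnt-type signalling 1 was higher, Sc4wPfr_381.1.g32171, described as vascular endothelial growth factor A, a secreted growth factor, with 12 and 61 counts, 3.83-fold (2.04 to 7.81). The receptor-type tyrosine phosphatase C gene MSTRG.16620, a surface phosphatase, had 8 and 88 counts, 8.29-fold higher (4.03 to 19.8), the 1 receptor of 83 past 3-fold.

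Of 22 neuropeptide and neuronal genes 2 were higher, both precursors of Hydra neuropeptides. The Hym-355 precursor Sc4wPfr_635.g14708 had 19 counts at 0 h and 88 at 4 h, 3.49-fold higher (2.11 to 6.07), and the KVamide precursor Sc4wPfr_844.g33330 had 78 and 313, 3.02-fold (2.35 to 3.93). Both rested on few barcodes, with 26.1% of the 4 h counts of the first and 49.8% of those of the second in 1 barcode. Without that barcode and the leading one at 0 h the KVamide gene was 1.67-fold higher. In the hypostome libraries Hym-355 stood at 270.4 and 824 CPM, above its 15.7 at 0 h and 54.8 at 4 h. KVamide stood there at 309 and 70.2 CPM, so these libraries lay on different sides of its 195 at 4 h and both above its 64.5 at 0 h.

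The dickkopf-related 3-like MSTRG.4545, a secreted protein that in Hydra is known from nematocytes, had 32 and 148 counts, 3.48-fold higher (2.36 to 5.28), the 1 of 16 nematocyst genes past the threshold. In the barcodes with 200 or more but fewer than 500 genes its ratio was 1.95 (0.952 to 4.32). Minicollagens, the capsule proteins of stinging cells, summed to 3026 CPM at 0 h and 3337 at 4 h, again an order that turns around with MSTRG.22171 kept.

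Genes of chromosomes and cell division gave 5 higher and 1 lower of 51. Of the 51, 36 had a ratio below 1 (31 with TMM factors and 43 with MSTRG.22171 kept), where 66.0% of all genes did. The median log2 ratio of the group was -0.30, against -0.20 over all genes. Sc4wPfr_262.2.g17815, a DNA replication helicase and nuclease, had 0 counts at 0 h and 50 at 4 h. That is 12.6-fold higher against the floor, with a lower interval bound of 9.84. The DNA methyltransferase 1 gene Sc4wPfr_1463.g9565, which copies DNA methylation at replication, had 7 and 100 counts, 10.8-fold higher (5.03 to 27.5). The centromere F-like gene Sc4wPfr_1020.1.g6620 had 14 and 91 counts, 4.90-fold (2.77 to 9.31), with 70.3% of its 4 h counts in 1 barcode and 1.85-fold without the leading barcodes. Cell division cycle 27, a subunit of the anaphase-promoting complex (Sc4wPfr_1414.g34), had 7 and 51 counts. Meiosis arrest female 1 (Sc4wPfr_1011.g26313), named for a mouse gene of the oocyte, had 10 and 42. The lower gene was the maelstrom homolog Sc4wPfr_758.1.g25238, a gene of transposon silencing in the germ line of flies and mice, with 41 and 18 counts.

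Glutamine synthetase, which makes glutamine from ammonia, had 4 tested genes that went 3 ways. Sc4wPfr_326.g15676 had 8 counts at 0 h and 111 at 4 h, 10.5-fold higher (5.12 to 24.8), and MSTRG.12033 had 5 and 46, 6.93-fold higher (2.76 to 22.3). MSTRG.12035 had 52 and 23, 3.001-fold lower (1.80 to 5.14). The most abundant, Sc4wPfr_319.g27338, had 239 and 178 CPM, and the 7 entries together stood at 297 CPM at 0 h and 298 at 4 h. The third higher metabolic gene was Sc4wPfr_635.g14757, an enzyme of the first step of the GPI anchor, with 9 and 62 counts, and the second lower one was the cytochrome P450 4F5-like Sc4wPfr_484.g18399, with 40 and 17.

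The largest group had no name. Of 811 genes tested without a description or described as uncharacterized, 30 were higher and 1 lower. MSTRG.398, with no match, had the highest level of all members, 2649 CPM at 0 h and 8459 at 4 h, 3.19-fold higher (3.07 to 3.32). MSTRG.23155, named for a slime mould protein of unknown function, had 380.3 and 1625 CPM, 4.27-fold higher (3.87 to 4.73), and MSTRG.1224, with no match, had 179 and 866 CPM, 4.85-fold (4.20 to 5.62). These 3 were abundant at both times, unlike the families that follow.

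All 4 tested entries described as hypothetical protein CGI_10013165 were among the higher genes, and together its entries stood at 19.8 CPM at 0 h and 714 at 4 h, with 0 counts in either hypostome library. MSTRG.6423 had 14 counts at 0 h and 660 at 4 h, 35.5-fold higher (21.0 to 65.3), and MSTRG.18883 had 4 and 246, 46.3-fold (17.9 to 171). MSTRG.10945 and MSTRG.10946 had 2 counts each at 0 h and 96 and 97 at 4 h, and they had the same count in 74 of the 75 barcodes that held either, so they may share reads and are uncertain as separate genes. All 3 tested entries described as uncharacterized LOC100210945 were higher as well, and its entries summed to 21.5 CPM at 0 h and 406 at 4 h. MSTRG.1615 had 17 and 491 counts, 21.8-fold higher (13.4 to 37.7), MSTRG.1616 had 5 and 85, 12.8-fold (5.28 to 40.4), and Sc4wPfr_112.1.g5141 had 3 and 73, a raw ratio of 18.3 (6.03 to 90.9). MSTRG.26350, with no match, had 0 counts at 0 h and 66 at 4 h. That is 16.6-fold higher against the floor, with a lower interval bound of 13.1. The lower uncharacterized gene, Sc4wPfr_181.g16632, had 42 and 10 counts, 5.58-fold lower (2.75 to 12.5).

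The remaining members were scattered over large groups. Ribosomal and translation genes gave 1 higher and 1 lower, each 0.568% of those tested. The ubiquitin FUBI gene MSTRG.3517, whose product carries a ribosomal protein in mammals, had 25 counts at 0 h and 145 at 4 h, 4.37-fold higher (2.84 to 6.97). Deep barcodes, those with at least 500 genes, held 72.4% of its 4 h counts, and in those with 200 or more but fewer than 500 its ratio was 1.79 (0.981 to 3.43). The 60S acidic ribosomal P0 entry Sc4wPfr_139.g196 had 48 and 12, 5.31-fold lower (2.78 to 11.0). The ribosome-binding 1-like Sc4wPfr_370.g26334, a protein of the secretory reticulum in vertebrates, had 316 CPM at 0 h and 66.6 at 4 h, 4.74-fold lower (3.82 to 5.93). Cilium and cytoskeleton genes gave 2 higher of 100, myosin IIIb-like Sc4wPfr_739.g28828 with 14 and 74 counts and the centrosomal protein of 290 kDa-like Sc4wPfr_484.g18384 with 39 and 214, and 1 lower, the centriole protein Centlein (Sc4wPfr_106.g23586) with 42 and 14. The vesicular inhibitory amino acid transporter MSTRG.2277, which loads GABA and glycine into vesicles, had 93 and 32 counts, 3.86-fold lower (2.56 to 5.96). Transcription factors and chromatin genes gave 1 higher of 120, the THAP domain gene Sc4wPfr_886.g29529 with 11 and 77 counts, and 1 lower, the Sin3a co-repressor Sc4wPfr_618.g14844 with 42 and 17.

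Smaller groups completed the set. A keratin-associated protein-like gene, Sc4wPfr_155.g16882, had 7 counts at 0 h and 203 at 4 h, 21.8-fold higher (10.4 to 55.0), and Sc4wPfr_954.g27079, of a major paralogous domain family, had 12 and 293, 18.4-fold (10.4 to 36.0). The RNA-binding group held 2 higher of 236, and folding and secretion 3 of 119. The keyword group of mitochondrial respiration held 1 of 242, MSTRG.597, which is described as a 39S mitochondrial ribosomal protein and is not a respiration gene. Of 103 transporters and channels 1 was higher and 1 lower, and of 61 reverse transcriptase and transposon genes 1 was higher.

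The direction was then read in the barcodes with at least 500 genes, 94 at 0 h and 111 at 4 h, which is part of the rule, so it describes the same counts in part. Of the 92 higher genes 73 had at least 10 counts there, and 73 were higher at 4 h, where 43.0% of all readable genes had a ratio above 1. For 62 of the 73 the interval was clear of 1, and 57 were at least 3-fold higher. In 16 the deep barcodes at 0 h held 0 counts, so the minimum of 10 counts alone set their side. Of the 26 lower genes 18 could be read, and 18 were lower, against 57.0% of all readable genes. For 13 of the 18 the interval was clear of 1, and 15 were at least 3-fold lower. The median fold was 5.13 and 4.29. For some members single barcodes made up most of these deep counts. At 0 h 1 barcode held 220 of the 239 deep counts of astacin Sc4wPfr_177.1.g6228. It also held 18 of the 20 of Sc4wPfr_177.1.g6220, which had 6 at 4 h. The same barcode held 60 of the 65 of Sc4wPfr_262.2.g17796, 22 of the 24 of Sc4wPfr_39.g20547 and 20 of the 24 of Sc4wPfr_90.g1199. Of the choriolytic enzyme Sc4wPfr_576.1.g2978 it held 41 of the 59. The deep counts of every lower astacin at 0 h thus lay mostly in this barcode. At 4 h 1 barcode held 152 of the 159 deep counts of MSTRG.17904 and 65 of the 70 of talin MSTRG.20919. The direction in deep barcodes without these was not tested. Barcodes with 200 or more but fewer than 500 genes held 69.7% of the counts used at 0 h and 73.3% at 4 h. The members were chosen largely from these counts, so their side there is in good part set by the choice. In these barcodes 87 of 91 higher genes and 26 of 26 lower genes kept their side, against 34.1% and 65.9% of all readable genes. The 4 exceptions there were the CEP290-like, centromere F-like and KVamide genes and the Golgi-associated plant pathogenesis-related 1-like Sc4wPfr_1416.g33251. CEP290-like Sc4wPfr_484.g18384 had 12 counts at 0 h and 187 at 4 h in the deep barcodes but 27 and 27 in the others, so the whole of its difference lay in deep barcodes. Hym-355 Sc4wPfr_635.g14708, with a ratio of 1.13 (0.616 to 2.13), the transporter Sc4wPfr_1132.1.g15933, with 1.84 (0.734 to 5.22), and Centlein Sc4wPfr_106.g23586, with 0.716 (0.252 to 2.04), also came nearer to 1 in these barcodes than in all barcodes used.

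Barcodes with fewer than 200 genes took no part in choosing the members, although they come from the same libraries. They held 150197 counts at 0 h and 115261 at 4 h. There 40 of the 41 higher genes with at least 10 counts were higher at 4 h, against 40.5% of all readable genes, with KVamide as the exception at 10 and 3 counts. Of 14 lower genes 12 were lower, against 59.5%, the exceptions being Sin3a with 7 and 6 counts and MSTRG.12035 with 8 and 7. Another 51 higher and 12 lower genes had too few counts to be read. The interval was clear of 1 for 32 of the 41 and 8 of the 14. A member reaches 10 counts more easily through the time at which it is high, which favours its own side. In 4 of the 41 the count at 0 h was 0. The shares of all genes are therefore no like comparison. The EGF-like gene Sc4wPfr_14.g1771 had 5 and 66 counts there, and the astacin Sc4wPfr_177.1.g6228 had 101 and 9.

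**Figure D4:**
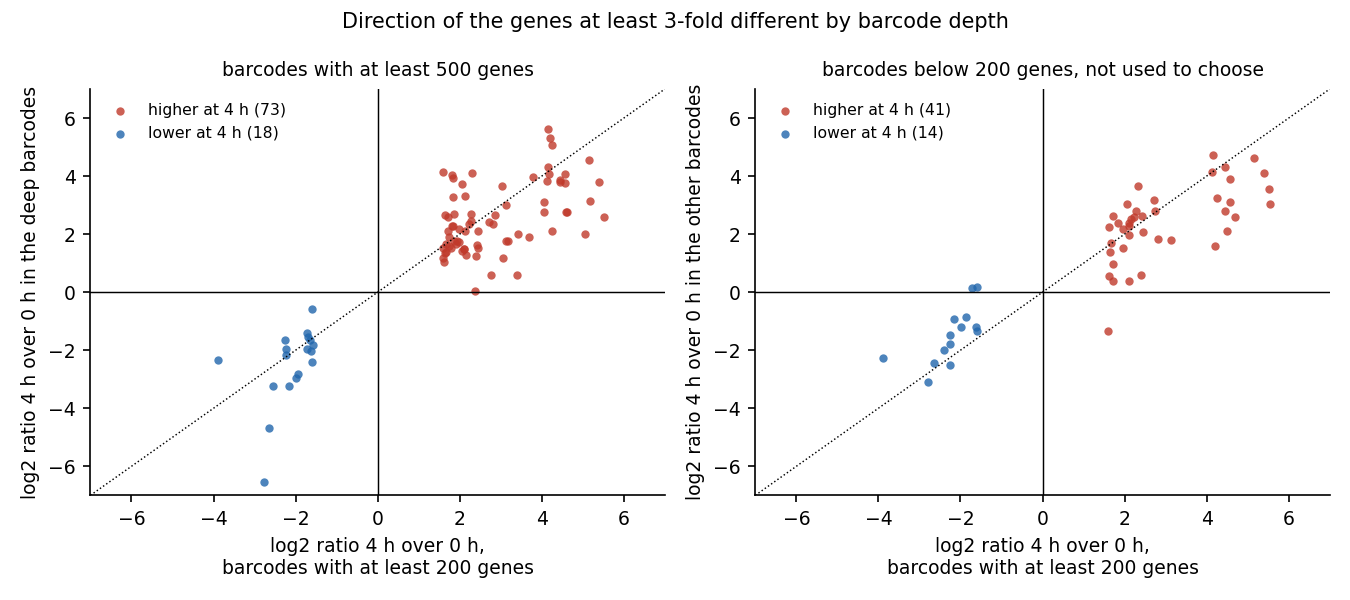
Log2 ratio 4 h over 0 h of the members in all barcodes used (x axis) against the ratio in barcodes with at least 500 genes (left, 73 higher and 18 lower genes) and in barcodes below 200 genes (right, 41 and 14), for members with at least 10 counts there, counts below 3 raised to 3. On the left all points lie in the 2 quadrants of equal sign, and on the right 3 points cross the zero line.

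The counts of most members, higher and lower, lay less in deep barcodes than those of the library as a whole. At 4 h the deep barcodes held 26.7% of all counts but a median of 18.3% of the counts of a higher gene, and 30 of the 92 had under 10% there. How many of all tested genes had under 10% there was not counted. At 0 h the deep barcodes held 30.3% of all counts and a median of 18.3% of the counts of a lower gene, with 19 of the 26 below the library's share. Rhamnose-binding lectin Sc4wPfr_270.g6407 is an example: its 120 counts were spread over 110 barcodes, at most 2 in each, with 3.33% in deep barcodes. At the other end 9 genes had over 70% of their counts in deep barcodes, among them CEP290-like with 87.4% in 24 barcodes in all and dickkopf-related 3-like with 79.7%. The higher genes were detected in a median of 74 barcodes at 4 h and 11 at 0 h, and the lower genes in a median of 15.5 at 4 h and 45 at 0 h. Whether thinly spread counts come from cells or from free RNA was not tested.

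Single barcodes stood out as well. At 4 h 1 barcode had 2188 genes and 7981 counts, where the medians were 258 genes and 429 counts. For 25 of the 92 higher genes it held at least as many counts as any other barcode. How many of all tested genes it led in this way was not counted. It held 3.95% of all counts of the higher genes and 0.497% of the library. In it were 152 of the 403 counts of FLO11-like MSTRG.17904, 137 of the 293 of Sc4wPfr_954.g27079, 145 of the 804 of the arabinofuranosidase, and 194 of the 1440 of lectin Sc4wPfr_1300.g9819. Rhamnose-binding lectins had 288 counts in it, PPOD peroxidases 72, minicollagens 0 and chymotrypsins 4. At 0 h 1 barcode, with 1487 genes and 4423 counts against medians of 247 and 361, led 7 of the 26 lower genes in the same sense. These were the 6 astacins and serine protease 27-like MSTRG.3315, the latter with 4 counts in this barcode. It held 220 of the 751 counts of Sc4wPfr_177.1.g6228 and 60 of the 185 of Sc4wPfr_262.2.g17796, with 570 counts of nas-type metalloproteases and 205 of chymotrypsins in all. Without these 2 barcodes, a setting chosen after seeing the data, 88 genes were higher and 24 lower. With the leading barcode of each gene left out at both times, all 118 stayed on their side of a ratio of 1, and 86 of 92 higher and 24 of 26 lower genes were still at least 3-fold different. The 6 higher genes below 3-fold were then the uncharacterized Sc4wPfr_44.1.g12976 at 1.37, talin MSTRG.20919, KVamide and centromere F-like as given above, the major facilitator transporter Sc4wPfr_1132.1.g15933 at 2.18 and the Hym-355 precursor at 2.88 (Sc4wPfr_635.g14708). The lower ones were MSTRG.308 at 2.84 and the choriolytic enzyme Sc4wPfr_576.1.g2978 at 2.87.

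The hypostome libraries, which the rule did not use, give a level of the members outside regeneration. Of the 92 higher genes 36 had 0 counts in both hypostome libraries, against 61 of all 5569 genes (1.10%), and 1 of the 26 lower genes did. The hypostome libraries are shallow, and the rule favours genes low at 0 h: 61 of the 92 were already below 14.0 CPM at 0 h, the level of 3 counts in the deeper hypostome library. The share at 0 is therefore given as a description. The next counts are descriptions as well, because the same split was not made for all tested genes. The 3-fold gap of the members also widens the range between the times. The pooled hypostome level was below both time points for 57 of the higher genes, between them for 21 and above both for 14. For the lower genes it was between the times for 18, below both for 6 and above both for 2. The glucosidase Sc4wPfr_177.1.g6182, for example, had 77.3 and 42.1 CPM in the hypostome libraries, between its 120 at 0 h and 8.10 at 4 h, and the astacin Sc4wPfr_177.1.g6228 had 672 and 585, near its 621 at 0 h. At 12 h, where 3 counts are 56.9 CPM, 77.2% of the higher and 84.6% of the lower genes had 0 counts, against 41.4% of all tested genes. Of the 118 members 25 had any count, so no order over time is given. The most were 304 counts of MSTRG.398, 56 of the THAP gene Sc4wPfr_886.g29529 and 46 of the pogo transposable element MSTRG.25136, which had 28 counts at 0 h and 115 at 4 h.

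**Figure D5:**
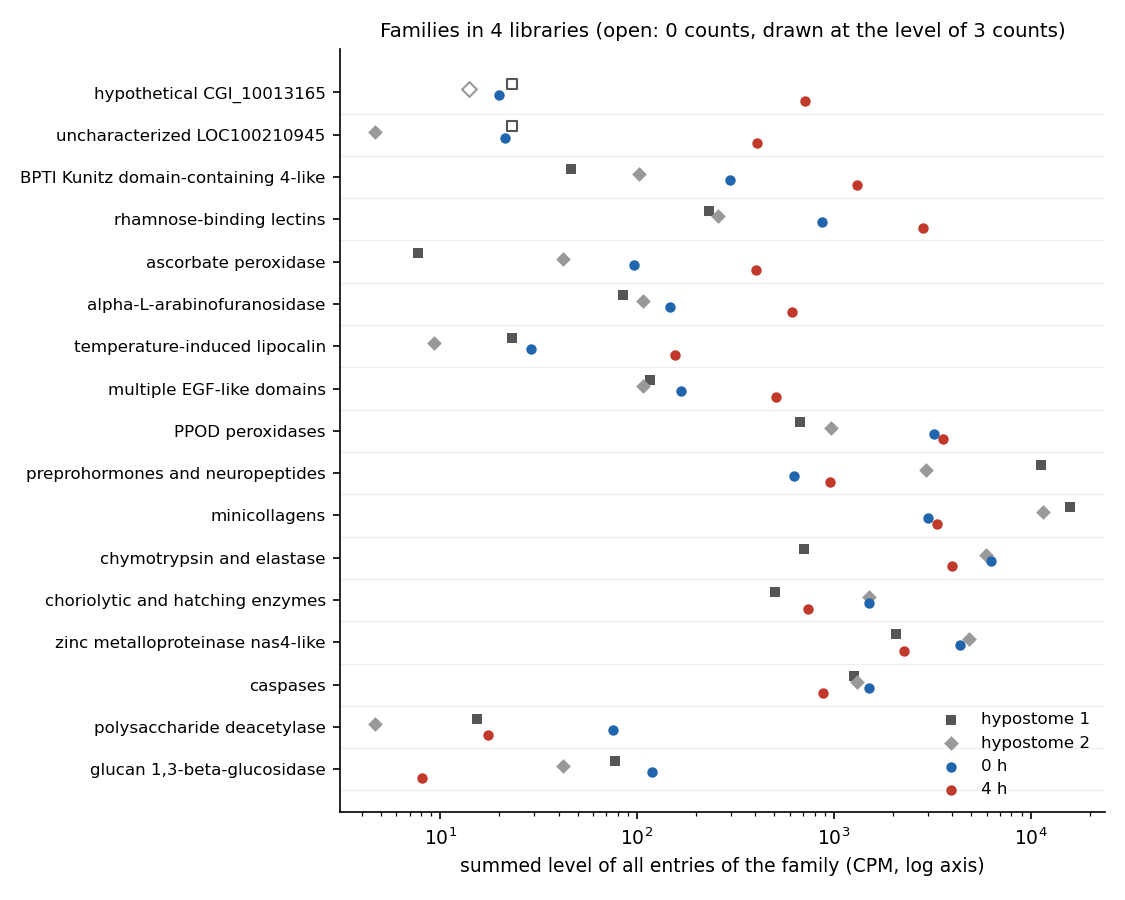
Summed level of all entries of 17 families (x axis, CPM, log scale) in the 2 hypostome libraries (grey) and at 0 h (blue) and 4 h (red), open symbols marking 0 counts drawn at 3 counts. The first 8 families lie highest at 4 h, going from 19.8 CPM at 0 h to 714 at 4 h for CGI_10013165, while minicollagens lie highest in the hypostome and nas4-like metalloproteases lie lower at 4 h than at 0 h.

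Several members have neighbouring identifiers, which in these tables carry no coordinates. Of the 118, 17 share the first part of their identifier with another member, in 7 sets, and 3 of the sets hold both directions. The set Sc4wPfr_177.1 held 3 lower genes, the glucosidase and 2 astacins, and the set Sc4wPfr_1152 held the higher epididymal secretory protein and the lower NPC2 homolog and deacetylase. Another 9 members have consecutive numbers, among them MSTRG.23155, MSTRG.23156 and MSTRG.23157, all higher, which are the slime mould-named gene and 2 Kunitz genes.

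The balance of directions depended on 1 entry. With MSTRG.22171 kept in the totals every ratio is multiplied by 0.741, the median log2 ratio over the 5569 genes was -0.63, and 63 genes were higher and 140 lower, so that 31.0% of the genes past 3-fold were higher, against 78.0% without it. Relative to the median of all genes the order of the genes is the same under both. With TMM factors the median was -0.04 and 113 genes were higher and 18 lower.

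The genes next to the threshold differed from each other by little. Just inside were brain-specific angiogenesis inhibitor 1-like Sc4wPfr_1747.g1276 and the RNA-binding Sc4wPfr_457.g21417, both 3.01-fold higher, and just outside was chymotrypsinogen B-like MSTRG.14945, with 89 and 354 counts and a ratio of 2.996. Among the lower genes MSTRG.12035 lay inside at 3.001-fold and the ELL-associated factor 1-like MSTRG.26430, with 36 and 16 counts, outside at 2.99-fold.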

How the data were processed

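The authors deposited whole-number counts per gene entry and cell barcode for 5 libraries prepared with the Bio-Rad SureCell 3′ kit, per the labels' protocols. kallisto 0.46.1 is named in the submitters' processing notes. Whether a count is a molecule or a read, the genome build, the annotation and the choice of barcodes are not given in the sources used here, and nothing says how libraries relate to separate animals.

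From these counts, barcodes with at least 200 detected genes were kept and summed per library, entries under 1 identifier with different descriptions were kept apart, MSTRG.22171 was removed and the rest scaled to the same total in every library (CPM). A ratio was taken where a gene reached 50 counts over the 2 libraries, any count below 3 raised to 3. Intervals are exact conditional binomial at 95%, for counting error only (Python 3.11.15, scipy 1.17.1). No test is possible with 1 library per time. Doublets were not called. The computation was tested on simulated data. TMM factors came from edgeR 4.0.16 (R 4.3.3).

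Named genes are the 12 each way whose interval lies farthest from 1, the 3 each way with the largest levels, and 3 each way per description group. Families and other genes were chosen after their values were seen. Members and lists were chosen with earlier results of these data known, and keyword patterns of the 27 groups, the families and the markers were refined after the tables had been seen. Genes carry the tables' own descriptions as names, because 0 of the 118 member identifiers occur in the gene table at hand. Barcodes are numbered only, so barcodes shared between libraries could not be counted. No sequence is shown.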

Additional observations from a re-analysis of the deposited data

How the results depend on the processing

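The counts of 92 higher and 26 lower genes were recomputed under 14 settings. They stayed within 1.5 times with TMM factors, all deposited barcodes (92 and 30), barcodes with 200 or more but fewer than 500 genes (74 and 22), thinning to the smaller total (76 and 31), identical entries counted once, and without the 2 leading barcodes. With MSTRG.22171 in the totals 140 were lower, and with every barcode weighing the same 51 were lower. Barcodes with at least 500 genes gave 40 higher and 13 lower of 2086 genes with enough counts. A minimum of 100 counts gave 53 and 11, a minimum of 20 gave 239 and 148, and no minimum gave 407 and 567. A 4-fold threshold left 12 lower, and a 2-fold threshold gave 222 higher and 246 lower. These last settings differ by construction in what is tested. The direction held for 52 of 55 readable members in barcodes below 200 genes, against 91 of 91 in barcodes with at least 500. Of 670 values of the 77 named genes under 9 settings, 589 stayed within the main counting interval, 77 left it on the same side of 1 and 4 reversed, all in barcodes with 200 or more but fewer than 500 genes: the log2 ratio was -0.48 for Sc4wPfr_484.g18384, -0.34 for Sc4wPfr_1020.1.g6620, and -0.12 for both Sc4wPfr_844.g33330 and Sc4wPfr_1416.g33251. The cause was not tested. No paired analysis was possible because each time point has 1 library and the labels number no replicates across times. Depth limits the hypostome and 12 h levels most.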

Other observations

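Groups with 0 members differed too, within the threshold. None of 28 stress and heat shock genes was 3-fold different either way, though 20 had a ratio above 1 (13 with MSTRG.22171 kept in the totals), with a median log2 ratio of 0.40, against 33.96% of all genes above 1. Within the heat shock 70 and 90 chaperones, which refold damaged proteins, MSTRG.10979 had 1453 CPM at 0 h and 2681 at 4 h, which is a ratio of 1.85 (1.75 to 1.95), while Sc4wPfr_289.1.g8521 had 1218 and 814, a ratio of 0.668 (0.620 to 0.721). The 8 tested chaperones of this kind split into 4 above and 4 below 1 (5 and 3 with TMM factors, 3 and 5 with MSTRG.22171 kept).

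Several other neuropeptide precursors leaned the same way as the 2 members. Of 9 tested precursors, the 2 members included, 8 had a ratio above 1 (9 with TMM factors and 7 with MSTRG.22171 kept). The intervals of MSTRG.19808, with a ratio of 1.39 (0.967 to 2.03), and MSTRG.19809, with 1.17 (0.645 to 2.16), spanned 1. Sc4wPfr_844.g33343 had 24 counts at 0 h and 81 at 4 h, which is a ratio of 2.54 (1.60 to 4.19), and Sc4wPfr_1593.g7871 had 32 and 88, a ratio of 2.07 (1.37 to 3.21). The most abundant, Sc4wPfr_59.2.g12471, had 246 CPM at 0 h and 245 at 4 h, which is a ratio of 0.999 (0.857 to 1.17).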
